A study of Mus musculus with 24 samples.

Results

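The subject here is the contrast between Venus-positive and Venus-negative epithelial cells of the mouse duodenum, set against the same contrast in the jejunum and ileum. It uses 18 of the 24 samples of the series: 3 Venus-positive and 3 Venus-negative libraries from each of the 3 small-intestinal regions, with the colonic libraries not used. The cells came from Guca2a-Venus mice, which carry a bacterial artificial chromosome transgene with the fluorescent protein Venus in place of the Guca2a coding sequence, so that Guca2a regulatory sequence drives Venus. The line descends from a single founder, and every library carries the transgene. Epithelium of each region was digested to single cells, which were sorted on the GFP channel into positive and negative fractions after dead cells, debris and CD45+ leucocytes had been gated out, and the RNA was sequenced in bulk. The mice ate standard chow and received no treatment, and their age and sex are not given in the sources used here. The design text speaks of separate mice, but no label names the mouse behind a library, so libraries that share a mouse were fitted as independent and p-values measure only the spread between these libraries.

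Guca2a encodes guanylin, a small peptide that is secreted into the gut lumen and binds guanylate cyclase C on epithelial cells, where cyclic GMP then opens chloride channels and slows sodium uptake. Crypt stem cells give rise to absorptive enterocytes, which carry digestive enzymes and transporters on a brush border, and to secretory cells, which include mucus-producing goblet cells, antimicrobial Paneth cells, hormone-producing enteroendocrine cells and chemosensory tuft cells. The duodenum receives gastric acid and bile and is the main site of iron and calcium uptake, while the ileum reclaims bile acids.

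The sort difference of a gene is its log2 level in positive minus negative cells. The duodenal shift is the sort difference of the duodenum minus the mean sort difference of the jejunum and ileum, fitted in a single model of the 18 libraries with edgeR's quasi-likelihood test and called at a Benjamini-Hochberg adjusted p of 0.05. A positive shift says that the contrast was more in favour of positive cells in the duodenum, and fitted values are given as log2 ± SE. Levels are read counts per library size scaled by edgeR's TMM factors, in CPM. Reads assigned to genes numbered 7458616 to 23063124 per library. The duodenal positive libraries were among the shallowest, at 7458616 to 11165593, and ileal positive library 3 lay within that range at 10634367. Mitochondrial genes took 32.3 to 46.6% of gene reads in duodenal positive libraries, 41.0 to 60.6% in the other positive libraries and 61.2 to 78.8% in all negative libraries. In duodenal positive libraries 64.6 to 75.8% of the tallied reads were not assigned to a gene (unmapped, multimapping, ambiguous or in no annotated feature), against 39.4 to 60.6% in the other libraries. With mitochondrial and non-coding genes left out of the fit, 2538 of the 2658 genes described next were still tested, and all 2538 were called in the same direction.

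Of 14366 genes tested, 2658 (18.5%) had a sort difference that differed between the duodenum and the other regions. The shift was positive for 1369 genes (9.53%) and negative for 1289 (8.97%). The jejunum and ileum differed from each other in sort difference for 40 genes (0.278%), 17 upward and 23 downward, or 26 and 14 with library size alone as the scale. Within the duodenum 1548 genes (10.8%) were higher and 1093 (7.61%) lower in positive cells. Over the mean of jejunum and ileum the counts were 3947 higher (27.5%) and 4457 lower (31%), and within the jejunum and ileum taken singly 6704 (46.7%) and 5750 genes (40%) differed between the sorts. The split between positive and negative shifts depended on scaling. The median shift over all genes tested was 0.12, and it became 0.46 with library size alone as the scale, when 1821 shifts were positive and 688 negative. On that scale the median duodenal sort difference moved from -0.08 to 0.28, and the duodenal calls from 1548 higher and 1093 lower to 2297 and 383.

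The positive shifts were of mixed make-up by the sign of the fitted values. Among the 1369 genes, 635 (46.4%) were lower in positive cells in both the duodenum and the mean of the other regions, and less so in the duodenum. Another 515 (37.6%) were higher in duodenal positive cells and lower in the others, and 219 (16%) were higher in both. Among the 1289 negative shifts, 680 (52.8%) were higher in positive cells on both sides, 585 (45.4%) were lower in duodenal and higher in jejunal and ileal positive cells, and 24 (1.86%) were lower in both.

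**Figure D1:**
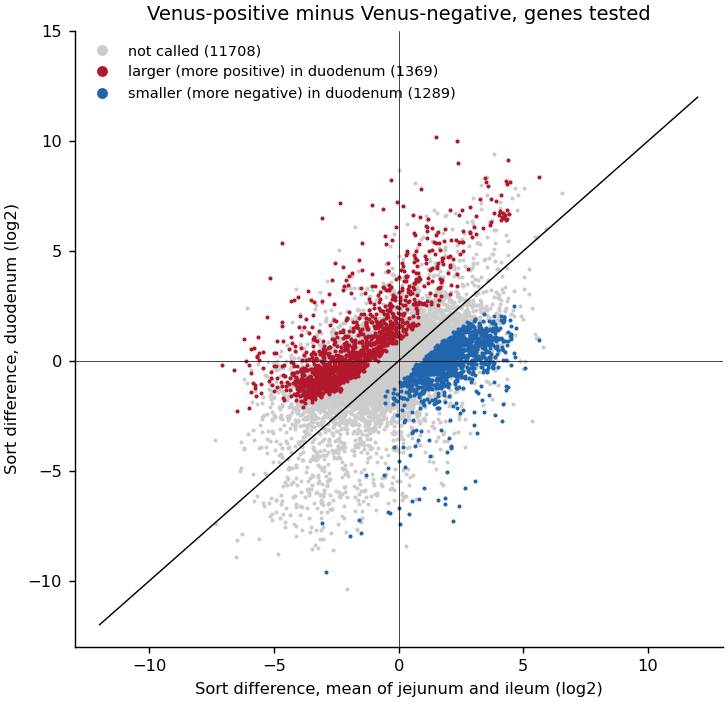
Sort difference (log2, positive minus negative cells) in the duodenum on the y axis against the mean of jejunum and ileum on the x axis, 1 point per gene tested, with the line of equal values. The 1369 genes with a positive shift lie above the line and the 1289 with a negative shift below it, and 11708 genes without a called shift are drawn in grey.

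The reporter gene itself separated the sorts most widely in the duodenum. Guca2a (chr4:119637704-119639471, plus strand, GRCm38) measured 266, 414 and 228 CPM in duodenal positive and 2.69, 6.74 and 6.39 CPM in duodenal negative libraries. In the jejunum it measured 161, 110 and 226 against 23.9, 20.8 and 26.5 CPM, and in the ileum 240, 179 and 210 against 25.0, 23.6 and 33.0 CPM. Every positive library lay above every negative library of its region, and the duodenal negative libraries lay below all negative libraries of the other regions. The sort difference was 5.84 in the duodenum, 2.80 in the jejunum and 2.95 in the ileum, a shift of 2.96 ± 0.41 (adjusted p = 4.4e-05). Most of it lay in the negative cells, which held less Guca2a in the duodenum (-2.27, adjusted p = 5.9e-05), while the positive cells held slightly more (0.70, adjusted p = 0.045, a call lost with library size alone). Since Venus was driven by Guca2a sequence, this difference is a check of the sort. Whether reads of the transgene counted towards Guca2a was not tested.

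Upstream of its RefSeq start, the Guca2a window chr4:119637482-119637731 (plus strand, GRCm38.p6) is shown because the reporter rests on this gene's regulatory sequence. It was searched on both strands for GATAAG, read on the other strand as CTTATC, which is bound by GATA factors, and for CAAAGTCCA, read on the other strand as TGGACTTTG, which is bound by HNF4 factors. No window shown here holds both motifs, so they do not overlap. Capitals mark the matches, which are GATA letters on the other strand that begin 145 and 121 bases before the start.
Guca2a: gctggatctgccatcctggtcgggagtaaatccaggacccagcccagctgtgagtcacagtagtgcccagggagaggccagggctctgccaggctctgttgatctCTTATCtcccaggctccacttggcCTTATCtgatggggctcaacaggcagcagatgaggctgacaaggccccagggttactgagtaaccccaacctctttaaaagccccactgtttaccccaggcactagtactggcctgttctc
GATA letters stood in 2151 of 32851 RefSeq promoter windows of 250 bases (6.55%) and HNF4 letters in 126 (0.384%).

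Guca2b, the neighbouring gene for uroguanylin, which binds the same receptor, had no called shift. It measured 749, 1045 and 1092 CPM in duodenal positive and 48.5, 53.0 and 56.5 CPM in duodenal negative libraries. In the jejunum the levels were 1808, 1298 and 2065 against 98.3, 119 and 142 CPM, and in the ileum 425, 487 and 785 against 25.0, 27.7 and 42.5 CPM. The groups were apart in every region by a like margin, with sort differences of 4.19, 3.85 and 4.16, and the shift was 0.19 ± 0.39 (95% interval -0.61 to 0.99, adjusted p = 0.79). Whether the transgene carries this neighbour and adds reads to it was not tested. Gucy2c, the guanylate cyclase C receptor, had a shift of -0.68 ± 0.32 (adjusted p = 0.15). It was 58.6 to 87.2 CPM in duodenal, 147 to 193 CPM in jejunal and 115 to 151 CPM in ileal positive libraries, and positive cells of the duodenum held less than those of the other regions (-1.04, adjusted p = 0.0014).

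Of 11 tested genes in the guanylin list, which holds the peptides, the receptor and the transport machinery downstream, 2 shifted up and 6 down, with a median of -1.86 against 0.12 over all genes. The genes that shifted down included Pde5a, a phosphodiesterase that breaks down cyclic GMP (-1.86 ± 0.30, adjusted p = 0.00016), Slc26a6, an apical anion exchanger (-2.97 ± 0.49, adjusted p = 0.00024), Prkg2, a cyclic GMP-dependent kinase (-2.40), and the sodium-hydrogen exchanger Slc9a3 (-2.06). Pde5a measured 25.6, 15 and 22.7 CPM in duodenal positive against 35.3, 39.7 and 31.7 CPM in duodenal negative libraries. In the jejunum the order was reversed, at 84.5, 81.5 and 89.0 against 48.4, 43.4 and 39.7 CPM, and likewise in the ileum, at 105, 107 and 129 against 50, 49.8 and 43.6 CPM. Cftr, the chloride channel, was lower in duodenal positive than negative cells (-1.25, adjusted p = 0.027) and showed no detectable shift (0.17 ± 0.47, adjusted p = 0.85). Abcc4, an efflux transporter of cyclic nucleotides, was the other gene that shifted up (3.54 ± 1.12, adjusted p = 0.031), with duodenal groups that overlapped at 0.11 to 3.98 CPM. Its shift ranged from 2.30 to 4.75 as single libraries were left out, and the call was lost without duodenal positive 2, duodenal negative 2 or 3, or jejunal negative 2 (adjusted p up to 0.225). None of the 3 genes of this list that were lower in duodenal positive cells kept that call with library size alone (edgeR), whereas 4 were lower there at an unadjusted p under 0.05 and 3 with DESeq2 on the original scale.

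**Figure D2:**
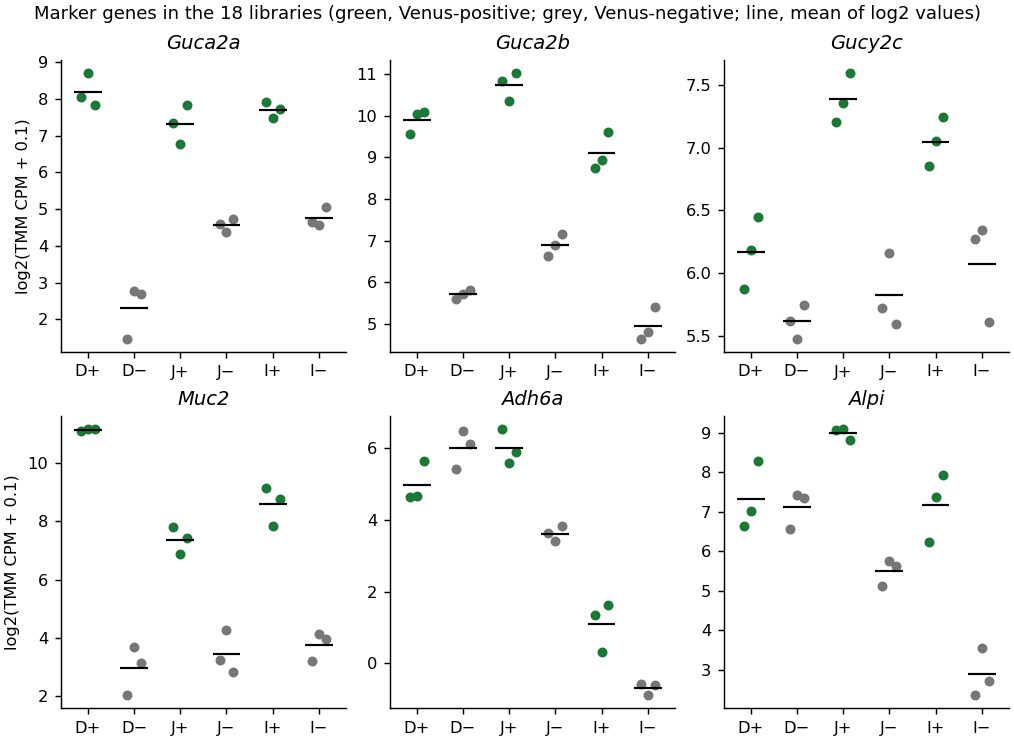
Level (log2 of TMM-scaled CPM + 0.1) of Guca2a, Guca2b, Gucy2c, Muc2, Adh6a and Alpi in the 18 libraries, with positive (+) and negative (−) groups of duodenum (D), jejunum (J) and ileum (I), 1 point per library and a line at the group mean. Guca2a and Muc2 are spread widest in the duodenum, Guca2b has a like spread in every region, and Adh6a and Alpi overlap between the duodenal sorts while standing apart in the other regions.

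Goblet cell genes carried the clearest positive shift. Muc2, which encodes the gel-forming mucin of the gut, measured 2183, 2274 and 2274 CPM in duodenal positive and 4.03, 12.8 and 8.69 CPM in duodenal negative libraries. The jejunal levels were 224, 116 and 171 against 9.27, 19.2 and 7 CPM, and the ileal levels 561, 229 and 436 against 9, 17.5 and 15.3 CPM. All duodenal positive libraries lay above all other positive libraries, while the negative libraries of the 3 regions overlapped. The sort difference was 8.04 in the duodenum and 4.36 over the other regions, a shift of 3.68 ± 0.51 (adjusted p = 6.4e-05).

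Of 19 goblet genes tested, 15 shifted up and 0 down (0 at an unadjusted p under 0.05 and 0 with DESeq2), with a median of 2.99. All 19 were higher in duodenal positive than negative cells, and 17 were over the other regions. Clca1, a secreted mucus-processing protease, ranged from 7445 to 8897 CPM in duodenal, 173 to 563 CPM in jejunal and 824 to 1860 CPM in ileal positive libraries (shift 3.90 ± 0.50, adjusted p = 3.0e-05). Fcgbp, a mucus component, ranged from 34210 to 35800, 987 to 2180 and 1807 to 4559 CPM in the same groups (3.44 ± 0.52, adjusted p = 0.00014). The spread among duodenal positive libraries was thus small beside the gap to the other regions. Creb3l1, a transcription factor of secretory cells, had the smallest p of the list (2.98 ± 0.39, adjusted p = 2.7e-05), and Spdef, a transcription factor of goblet and Paneth cell maturation, shifted by 3.00 ± 0.65 (adjusted p = 0.0022). The mucus proteins Zg16, Tff3 and Agr2 shifted by 3.65, 2.65 and 2.42. The summed level of the list was 58400 to 68500 CPM in duodenal, 3740 to 7540 in jejunal and 7370 to 12500 in ileal positive libraries, and 520 to 830 CPM in all negative libraries. In bulk libraries, fewer cells of a type and less RNA per cell cannot be told apart. The 4 goblet genes not called were Capn9, Klk1, Muc13 and Retnlb. Muc13, a membrane mucin that enterocytes also carry, stood at -0.42 ± 0.45 (adjusted p = 0.57). Retnlb, a goblet cell antimicrobial, varied between libraries of a group, at 0.77, 610 and 5.46 CPM in duodenal positive cells.

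Paneth cell genes shifted in the same direction with wider spread. Of 18 tested, 12 shifted up and 0 down (0 at an unadjusted p under 0.05 and 0 with DESeq2), with a median of 2.46, and DESeq2 called 9 up. As single libraries were left out the count ranged from 2, without duodenal negative library 3, to 17. It was 4 without duodenal negative library 1 or positive library 2, 7 without duodenal positive library 1, and 6 without ileal negative 1, jejunal negative 3 or ileal positive 3. Mmp7, the protease that activates defensins, measured 456, 1180 and 303 CPM in duodenal positive and 4.67, 17.4 and 4.45 CPM in duodenal negative libraries. It measured 64.5, 25.7 and 184 against 9.72, 6.35 and 11.8 CPM in the jejunum, and 152, 109 and 122 against 7.64, 6.73 and 9.35 CPM in the ileum. Duodenal positive libraries lay above all others, the jejunal positive libraries differed most among themselves, and the shift was 2.53 ± 0.68 (adjusted p = 0.012). Pla2g2a, a secreted antibacterial phospholipase, shifted by 4.86 ± 1.52 (adjusted p = 0.0065, and by 7.60 without duodenal negative library 3), and the defensin Defa29 by 2.68 ± 0.72 (adjusted p = 0.012). Lyz1, the Paneth lysozyme, was 5833 to 17050 CPM in duodenal positive libraries and its shift was 2.30 ± 0.81 (adjusted p = 0.054). Defa21 and Defa22 were lower in the duodenum than elsewhere within the positive cells (-1.99 and -1.79, adjusted p = 0.0057 and 0.013), in contrast to the other 16 members, and lower still within the negative cells (-4.38 and -4.33). Defensin genes, and Lyz1 with Lyz2, are near-identical copies among which reads can be split, so their single values are uncertain.

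Some regulators of the secretory lineage also shifted up. Atoh1, the transcription factor that commits crypt cells to secretory fates, measured 85.7, 86.2 and 79.8 CPM in duodenal positive and 1.49, 1.75 and 0.43 CPM in duodenal negative libraries. It measured 7.81, 3.23 and 7.54 against 1.65, 0.50 and 0.23 CPM in the jejunum, and 22.7, 13.6 and 12.1 against 1.98, 1.37 and 2.46 CPM in the ileum. The groups were apart in each region and the duodenal positive libraries lay above all others, a shift of 3.04 ± 0.58 (adjusted p = 0.00086). Of 12 regulators tested, 6 shifted up (Atoh1, Gfi1, Foxa2, Sox9, Hes1 and Dll4) and 0 down (0 at an unadjusted p under 0.05 and 0 with DESeq2), with a median of 1.41. Sox9, which is expressed in stem and Paneth cells, overlapped between the duodenal sorts at 19.2 to 34.1 CPM and was lower in positive cells elsewhere (-2.68), so that its positive shift (2.88 ± 0.50, adjusted p = 0.00036) came without a duodenal sort difference that passed the test (0.19, adjusted p = 0.78).

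Enzymes that build the sugar chains of mucins shifted in part. Of 19 genes of O-glycosylation tested, 9 shifted up and 2 down, against 9.53% and 8.97% of all genes tested. Gcnt3, the mucin-type core-branching enzyme, measured 283, 231 and 219 CPM in duodenal positive and 7.29, 10.4 and 11.2 CPM in duodenal negative libraries, against 10.2 to 23.7 and 5.98 to 10.4 CPM in the jejunum. Its ileal levels were 34.9 to 72.6 and 9.63 to 12.2 CPM, and the shift was 2.91 ± 0.39 (adjusted p = 3.5e-05). Galnt4, which adds the initial sugar, was higher in positive cells in the duodenum (1.76) and not detectably so elsewhere (-0.11, adjusted p = 0.62), a shift of 1.87 ± 0.32 (adjusted p = 0.00028). St3gal4, a sialyltransferase, went the other way (-2.77 ± 0.39, adjusted p = 6.1e-05), at 114 to 163 CPM in duodenal and 479 to 869 CPM in jejunal and ileal positive libraries, as did Gcnt4 (-2.23 ± 0.46, adjusted p = 0.0016).

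Of 35 genes of protein folding and export in the endoplasmic reticulum, 9 shifted up and 0 down (0 at an unadjusted p under 0.05 and 0 with DESeq2), with a median of 0.82. DESeq2 called 13 up and the fit on library size alone 14. The count was 17 without jejunal positive library 3, 5 without duodenal negative 2, ileal positive 2 or ileal positive 3, and 4 without duodenal negative 1 or 3, duodenal positive 2, jejunal positive 2 or ileal negative 3. Ern2, a stress sensor of mucus-producing cells, stood first (3.99 ± 0.63, adjusted p = 0.00016), at 52.6 to 98.6 CPM in duodenal positive libraries, 2.17 to 4.25 CPM in jejunal and 5.58 to 20.6 CPM in ileal ones. Pdia5, a disulfide isomerase, was higher in positive cells in the duodenum (2.55) and shifted by 2.39 ± 0.47 (adjusted p = 0.0011).

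**Figure D3:**
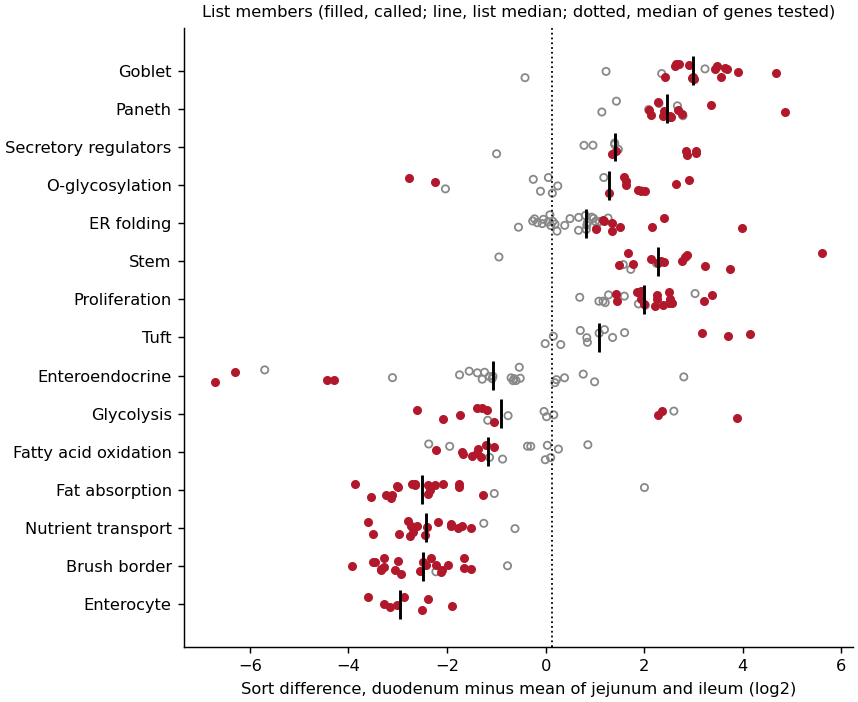
Duodenal shift (log2, duodenum minus the mean of jejunum and ileum) of each tested member of 15 gene lists, with filled points for called genes, open points for the rest, a bar at each list's median and a dotted line at the median of all genes tested (0.12). Goblet, Paneth, stem and proliferation lists lie to the right, with medians of 2.99 for goblet, 2.46 for Paneth and 1.99 for proliferation genes, and brush border, nutrient transport, fat absorption and enterocyte lists to the left, with medians of -2.49, -2.43, -2.52 and -2.95.

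Absorptive genes carried the clearest negative shift. Over the jejunum and ileum most were higher in positive cells: all 8 enterocyte and all 23 brush border genes, 17 of 18 nutrient transporters and 18 of 20 genes of fat absorption, where Scarb1, a lipoprotein receptor, was lower (-2.35). In the duodenum fewer were, at 1, 10, 1 and 2 in these lists, or 2, 14, 5 and 6 with library size alone. Alpi, intestinal alkaline phosphatase of the brush border, measured 99.3, 131 and 311 CPM in duodenal positive and 95.2, 172 and 164 CPM in duodenal negative libraries. It measured 540, 546 and 455 against 34.7, 54.0 and 49.3 CPM in the jejunum, and 74.7, 168 and 244 against 5.05, 11.6 and 6.50 CPM in the ileum. The duodenal groups overlapped and the others were apart, with sort differences of 0.33 and 3.93 and a shift of -3.60 ± 0.51 (adjusted p = 6.7e-05). Adh6a, an alcohol dehydrogenase of enterocytes, measured 24.7, 25.3 and 49.6 CPM in duodenal positive and 43.1, 89.9 and 69.6 CPM in duodenal negative libraries. In the jejunum it was 92.2, 48.1 and 59.1 against 12.3, 10.5 and 14.0 CPM, and in the ileum 2.46, 1.14 and 2.99 against 0.57, 0.44 and 0.56 CPM. The duodenal sorts overlapped, although the fitted difference passed the test (-1.03, adjusted p = 0.036), and the shift was -3.27 ± 0.44 (adjusted p = 3.5e-05). All 8 enterocyte genes of the list shifted down, with a median of -2.95. Khk, the enzyme of fructose breakdown, was lower in positive cells in the duodenum (-1.17, adjusted p = 0.0091) and higher elsewhere (1.70, shift -2.88 ± 0.37, adjusted p = 2.5e-05), and Mep1a, a brush border protease, shifted by -3.16 ± 0.41 (adjusted p = 2.9e-05). With library size alone, neither Adh6a nor Khk was lower in duodenal positive cells by the test, while all 8 shifts remained called.

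Of 23 brush border genes, 21 shifted down, with a median of -2.49, and 0 up (0 at an unadjusted p under 0.05 and 0 with DESeq2). The median sort difference was 0.999 in the duodenum and 3.65 over the other regions, where all 23 were higher in positive cells. In the duodenum 10 of 23 were (14 with library size alone). Mme, the peptidase neprilysin, measured 69.3, 57.9 and 113 CPM in duodenal positive and 75.1, 97.1 and 87.8 CPM in duodenal negative libraries. It measured 456, 272 and 554 against 48.2, 32.8 and 57.8 CPM in the jejunum, and 88.4, 152 and 211 against 4.17, 5.4 and 11.7 CPM in the ileum, a shift of -3.92 ± 0.46 (adjusted p = 1.4e-05). Dpp4, the peptidase that trims incretin hormones, was 42.9 to 78.5 and 55.2 to 82.5 CPM in the duodenal sorts, against 444 to 883 and 44.3 to 158 CPM in those of the other regions (-3.34 ± 0.41, adjusted p = 1.8e-05). Sis, sucrase-isomaltase, shifted by -3.35 ± 0.41 (adjusted p = 1.9e-05). Lct, lactase, kept a duodenal sort difference (1.34, adjusted p = 0.025) that was smaller than that elsewhere (3.83), for a shift of -2.49 ± 0.51 (adjusted p = 0.0017). The summed level of the list was 1710 to 3300 CPM in duodenal positive libraries, against 15300 to 24500 CPM in the other positive libraries and 1350 to 2990 CPM in all negative ones.

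Nutrient transporters behaved likewise, with 16 of 18 shifted down, a median of -2.43 and 0 up (0 at an unadjusted p under 0.05 and 0 with DESeq2). Slc15a1, the peptide transporter, measured 23.3, 14.8 and 39.4 CPM in duodenal positive and 13.3, 18.5 and 23.1 CPM in duodenal negative libraries. It measured 712.5, 412.3 and 705.3 against 43.7, 45.6 and 57.1 CPM in the jejunum, and 193, 278 and 356 against 6.94, 17.6 and 16.4 CPM in the ileum. The duodenal sorts overlapped and the shift was -3.50 ± 0.45 (adjusted p = 3.1e-05). Slc5a1, the sodium-glucose cotransporter, shifted by -2.60 ± 0.41 (adjusted p = 0.00015), and Slc7a9, a subunit of the cystine and dibasic amino acid transporter, by -2.98 ± 0.40 (adjusted p = 3.8e-05). Slc3a1, the partner subunit of Slc7a9, shifted by -2.45 ± 0.44 (adjusted p = 0.00055). Its levels were 27.9 to 44.0 CPM in duodenal and 112 to 334 CPM in the other positive libraries.

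Promoter windows of 3 absorptive genes that shifted down are shown because each holds HNF4 letters close to its start. Capitals mark those letters, which begin 19 bases before the start in Alpi (chr1:87101607-87101856, minus strand), 39 bases before it in Slc3a1 (chr17:85028097-85028346, plus strand) and, on the other strand, 71 bases before it in Treh (chr9:44672983-44673232, plus strand), all from RefSeq on GRCm38.p6. Treh encodes the brush border enzyme trehalase and shifted by -3.28 ± 0.51 (adjusted p = 0.00016).
Alpi: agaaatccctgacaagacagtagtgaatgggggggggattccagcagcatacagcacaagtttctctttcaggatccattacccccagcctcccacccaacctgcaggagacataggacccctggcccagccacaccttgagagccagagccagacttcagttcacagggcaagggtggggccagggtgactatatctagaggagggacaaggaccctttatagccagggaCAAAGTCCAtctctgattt
Slc3a1: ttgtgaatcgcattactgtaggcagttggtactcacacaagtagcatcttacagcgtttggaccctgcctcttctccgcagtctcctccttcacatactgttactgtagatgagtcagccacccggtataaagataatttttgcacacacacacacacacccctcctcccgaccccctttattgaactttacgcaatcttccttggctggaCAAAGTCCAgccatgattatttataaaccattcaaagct
Treh: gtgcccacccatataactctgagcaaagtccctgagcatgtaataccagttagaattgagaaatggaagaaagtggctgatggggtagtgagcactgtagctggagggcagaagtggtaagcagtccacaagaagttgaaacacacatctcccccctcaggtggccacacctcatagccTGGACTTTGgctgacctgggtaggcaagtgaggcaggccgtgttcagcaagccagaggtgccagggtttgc
Treh was 1 of 20 brush border genes with a window, and Slc3a1 1 of 18 nutrient transporters, that held these letters. These counts are per gene, over any of its windows, whereas the shares given for all promoters are per window. HNF4 letters also stood in windows of Muc13, B3gnt3, Trpv6 and Cela2a, beginning 186, 154, 149 and 92 bases before the start. The shift of Muc13 was not called. RefSeq windows matched 10002 of the 14366 genes tested (69.6%), and shares were not compared between the called genes and the rest.

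Of 20 genes of fat absorption, 18 shifted down, with a median of -2.52, and 0 up (0 at an unadjusted p under 0.05 and 0 with DESeq2). Apob, the structural protein of chylomicrons, measured 317, 290 and 582 CPM in duodenal positive and 212, 293 and 227 CPM in duodenal negative libraries. It measured 7505, 5184 and 6584 against 426, 554 and 446 CPM in the jejunum, and 1220, 3180 and 4278 against 120, 185 and 193 CPM in the ileum, a shift of -3.24 ± 0.49 (adjusted p = 0.00012). Mttp, which loads lipid onto it, shifted by -3.00 ± 0.45 (adjusted p = 0.00012), and the lipid-regulating transcription factor Creb3l3 by -3.87 ± 0.71 (adjusted p = 0.00074). Apoa4, a chylomicron apolipoprotein, remained higher in positive cells in the duodenum (1.53, adjusted p = 0.021), at 1169, 773 and 1929 against 367, 467 and 506 CPM. Elsewhere its sort difference was 3.91, and the shift was -2.38 ± 0.55 (adjusted p = 0.0043).

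Genes of iron and calcium handling, bile acid uptake and energy metabolism shifted in smaller numbers. Atp2b1, a calcium pump, and Heph, the ferroxidase of iron export, were among 4 of 8 iron and calcium genes that shifted down (-1.88 ± 0.31 and -1.22 ± 0.34, adjusted p = 0.00019 and 0.013), a count that fell to 1 with library size alone. The Heph call was lost without duodenal positive 1 or duodenal negative 2 (adjusted p = 0.0651 and 0.0521). The bile acid exporters Slc51a and Slc51b shifted by -3.02 ± 0.44 and -2.89 ± 0.57 (adjusted p = 8.5e-05 and 0.0011), the 2 called of 6 genes in that list. Of 20 genes of fatty acid oxidation, 9 shifted down, and 1 did with library size alone. Glycolysis was divided. Hk2 and Hk1, which phosphorylate glucose, shifted up by 2.28 ± 0.41 and 3.88 ± 0.77 (adjusted p = 0.00049 and 0.0011) together with the glucose carrier Slc2a1. Another 7 of the 16 genes shifted down, among them Eno1, the enolase of glycolysis (-2.08 ± 0.43, adjusted p = 0.0015), and 2 were called with library size alone. Hk2 measured 73.0, 87.7 and 52.6 CPM in duodenal positive and 13.7, 9.33 and 13.8 CPM in duodenal negative libraries, which stood apart, whereas the jejunal sorts overlapped at 8.66 to 27.1 CPM.

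Both lists of position along the villus held more negative than positive shifts. Of 11 villus-tip genes 6 shifted down, Creb3l3 and Apoa4 among them, and 4 did with DESeq2. Of 7 villus-bottom genes 3 shifted down and Reg1, a secreted lectin, up. Over all genes tested 8.97% shifted down and 9.53% up, and lists this short say little about position along the villus. Ccl25, a chemokine that draws lymphocytes to the small intestine, measured 101, 129 and 125 CPM in duodenal positive and 304, 428 and 409 CPM in duodenal negative libraries, which were apart. The jejunal sorts overlapped at 216 to 474 CPM and the ileal positive libraries, at 266 to 313 CPM, lay above the negative ones at 136 to 217 CPM, a shift of -1.81 ± 0.36 (adjusted p = 0.0013).

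Stem cell and cell cycle genes shifted up from the opposite side: they were lower in positive cells of the jejunum and ileum, and less so in the duodenum. Olfm4, a marker of crypt stem cells, measured 455, 808 and 968 CPM in duodenal positive and 1760, 1540 and 2176 CPM in duodenal negative libraries. It measured 52.1, 27.1 and 309 against 1578, 1277 and 2226 CPM in the jejunum, and 194, 98.1 and 233 against 1788, 861 and 3542 CPM in the ileum. Positive libraries lay below negative ones in each region, and the duodenal positive libraries above the other positive libraries, a shift of 2.34 ± 0.73 (adjusted p = 0.03). Of 17 stem cell genes 13 shifted up and 0 down (0 at an unadjusted p under 0.05 and 0 with DESeq2). Over the jejunum and ileum 16 of the 17 were lower in positive cells, and in the duodenum 3 (1 with library size alone). Sox4, a transcription factor of crypt progenitors, shifted by 3.24 ± 0.44 (adjusted p = 3.5e-05), at 7.96 to 12.8 CPM in duodenal and 0.34 to 2.40 CPM in the other positive libraries. Lrig1, a receptor inhibitor that marks stem cells, shifted by 2.77 ± 0.47 (adjusted p = 0.0003) and overlapped between the duodenal sorts at 18.5 to 29.1 CPM. Lgr5, the best-known stem cell marker, was at 2.25 ± 0.91 (adjusted p = 0.092). Ascl2, a stem cell transcription factor, had no counts in jejunal positive libraries, where it was at least 9.61-fold lower than in negative ones against a floor of 3 counts per library.

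Of 25 cell cycle genes, 16 shifted up, with a median of 1.99, and 0 down (0 at an unadjusted p under 0.05 and 0 with DESeq2). The count ranged from 12 to 22 as single libraries were left out. Birc5, a survival factor of dividing cells, measured 9.12, 19.2 and 11.3 CPM in duodenal positive and 21.5, 23.3 and 28.3 CPM in duodenal negative libraries. It measured 1.57, 0.70 and 3.05 against 21.2, 22.2 and 22.5 CPM in the jejunum, and 2.51, 1.40 and 1.94 against 12.5, 21.8 and 21.7 CPM in the ileum. The negative libraries of the regions overlapped, the duodenal positive ones lay above all other positive ones, and the shift was 2.57 ± 0.46 (adjusted p = 0.00043). Cdk1, the mitotic kinase, shifted by 2.51 ± 0.48 (adjusted p = 0.00088), and Mki67, the proliferation antigen, by 1.93 ± 0.49 (adjusted p = 0.0082). All 25 genes were lower in positive cells over the jejunum and ileum, and 9 were in the duodenum (14 with DESeq2 and 3 with library size alone).

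Enteroendocrine genes were lower in positive cells in every region. Of 26 tested, 22 were lower in the duodenum and 23 over the other regions. Chga, the granule protein chromogranin A, measured 9.01, 13 and 2.49 against 214, 180 and 161 CPM in the duodenal sorts, with a shift of -0.66 ± 0.63 (adjusted p = 0.52). The shift was called for 4 genes, all down, and for 7 with DESeq2. Cpe, the prohormone-trimming carboxypeptidase, measured 0, 0.26 and 0.24 CPM in duodenal positive and 25.1, 28.1 and 36.2 CPM in duodenal negative libraries, and shifted by -4.30 ± 1.06 (adjusted p = 0.0016). Scg5 and Pyy, for a granule chaperone and the hormone peptide YY, had no counts in duodenal positive libraries, where they were at least 20.2-fold and 5.81-fold lower than in negative ones. Ghrl, for the hormone ghrelin, measured 3.08, 1.39 and 0.36 against 42.1, 61.0 and 38.1 CPM in the duodenum and 1.71, 0.94 and 1.12 against 15.8, 7.35 and 5.73 CPM in the jejunum. In the ileum its sorts overlapped at 0.08 to 7.78 CPM, and the shift was -4.44 ± 0.95 (adjusted p = 0.0023), which against the jejunum alone was -1.94 and not called. Tuft cell genes gave 3 positive shifts of 13, among them Avil, a cytoskeletal protein of these cells (3.17 ± 0.64, adjusted p = 0.0013). Avil overlapped between the duodenal sorts at 2.59 to 6.15 CPM, and was 0.47 to 1.10 CPM in positive and 2.43 to 8.84 CPM in negative libraries elsewhere. The other members called were Hpgds, at no more than 2.84 CPM in any library, and Pou2f3, which had no counts in jejunal positive libraries and lost the call in 11 of the 18 fits that left out 1 library (adjusted p up to 0.179).

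The shift is the regional difference of the positive cells minus that of the negative cells, and the positive cells contributed the larger part in 1287 of the 1369 positive shifts (94.0%) and in 1154 of the 1289 negative ones (89.5%), against 75.0% of all genes tested. Positive cells of the duodenum were higher than those of the other regions for 3015 genes (21%) and lower for 2483 (17.3%). For negative cells the counts were 218 (1.52%) and 136 (0.947%), which became 154 and 234 with library size alone. Of the goblet genes 18 of 19 were higher in duodenal positive cells, and 0 differed in negative cells (2 at an unadjusted p under 0.05 and 2 with DESeq2). Of the brush border genes 22 of 23 were lower in duodenal positive cells, and 3 were higher and 5 lower in negative cells. Of the cell cycle genes 22 of 25 were higher in positive cells, and 0 differed in negative cells (0 at an unadjusted p under 0.05 and 0 with DESeq2). Genes of fat absorption differed on both sides, with 14 of 20 lower in positive cells and 7 higher in negative cells.

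**Figure D4:**
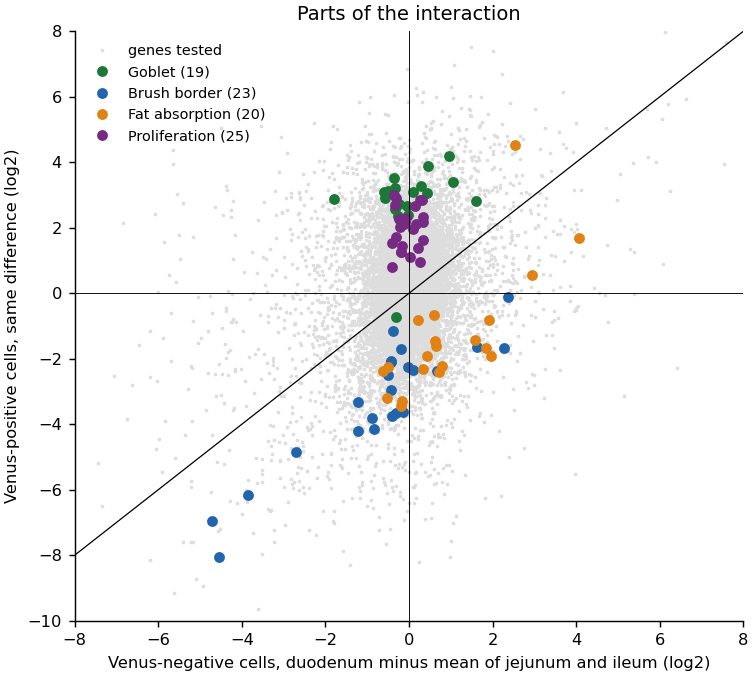
Regional difference (log2, duodenum minus the mean of jejunum and ileum) within positive cells on the y axis against that within negative cells on the x axis, 1 point per gene tested, with the line on which the shift is 0. Of the goblet genes 18 of 19 lie above the line, and all 23 brush border genes and 19 of 20 fat absorption genes lie below it.

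Genes that are known to mark regions of the gut followed the region labels. Onecut2, a transcription factor of the proximal gut, was higher in the duodenum in both sorts (5.03 in positive and 4.72 in negative cells), and its shift was 0.31 ± 0.59 (adjusted p = 0.77). Reg1 measured 71.0, 110 and 101 CPM in duodenal positive and 72.3, 224 and 193 CPM in duodenal negative libraries, against 0 to 0.75 and 0.70 to 5.79 CPM in those of the other regions. It shifted by 1.84 ± 0.57 (adjusted p = 0.021), a call lost without duodenal negative library 1 or positive library 2 (1.44 and 1.76). Pdx1, the duodenal and pancreatic transcription factor, measured 19.1, 24.6 and 18.6 CPM in duodenal positive and 12.4, 14.2 and 12.4 CPM in duodenal negative libraries, and 0 to 1.25 CPM elsewhere, with no counts in ileal positive libraries. Gata4, which is known to be absent from the distal ileum, was 24.6 to 46.8 CPM in the duodenum, 22.8 to 54.6 CPM in the jejunum and 0.56 to 3.14 CPM in the ileum, and shifted by -1.66 ± 0.34 (adjusted p = 0.0014). Slc10a2, the ileal bile acid carrier, was 474 to 1050 CPM in ileal positive libraries and at most 4.29 CPM in the positive libraries of the other regions. Of 15 regional transcription factors 2 shifted up (Cdx1 and Pdx1) and 4 down, against 9.53% and 8.97% of all genes tested. With DESeq2 the counts were 1 and 5, and Pdx1 was not called (adjusted p = 0.0833). The call was lost for Cdx1 without duodenal negative 2 (adjusted p = 0.053) and for Pdx1 without duodenal positive 2 (0.052). Maf, a transcription factor of enterocytes, led the negative shifts by p (-2.57 ± 0.37, adjusted p = 6.4e-05), and Hnf4g, a nuclear receptor of enterocytes, followed (-2.44 ± 0.43, adjusted p = 0.00041).

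All 7 genes of antigen presentation by MHC class II were lower in duodenal positive cells than in those of the other regions, and in negative cells 3 were lower (5 with DESeq2, 6 with library size alone and 7 at an unadjusted p under 0.05). Of these 7, 0 had a called shift (3 at an unadjusted p under 0.05 and 1 with DESeq2). Interferon-response genes were higher in duodenal negative cells for 9 of 12 and in duodenal positive cells for 6. Ifit3, an antiviral protein, was 1.77 to 7.76 CPM in duodenal negative libraries and 0.11 to 0.81 CPM in the other negative ones, and shifted by -4.08 ± 0.82 (adjusted p = 0.0013), the largest of 5 negative shifts in that list. Ido1, a tryptophan-degrading enzyme, was the 1 member that shifted up (2.75 ± 0.73, adjusted p = 0.0093), at 102, 108 and 113 CPM in duodenal positive and 5.45 to 23.3 CPM in the other positive libraries, a call lost without ileal negative 2 (adjusted p = 0.0833). The share over all genes tested was 9.53% for positive and 8.97% for negative shifts.

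Among protein-coding genes with a mean of at least 5 CPM in some group, the largest fitted shifts rested on low levels. Ptgdr, a prostaglandin D2 receptor, measured 9.34, 13.6 and 5.22 CPM in duodenal positive libraries and had no counts in duodenal negative ones, at least 45.3-fold higher against a floor of 3 counts per library, while its jejunal and ileal levels were at most 0.50 CPM. Gm379, an uncharacterised gene, measured 7.47, 12.0 and 5.46 CPM in duodenal positive libraries and was likewise at least 40.1-fold higher. B3gnt5, the enzyme that starts lacto-series glycolipids, had counts in every group, at 17.8, 16.4 and 7.72 against 1.06, 1.62 and 0.57 CPM in the duodenal sorts. In the jejunum it was 0.14, 0.12 and 0.40 against 1.65, 1.93 and 1.62 CPM, and its shift was 5.78 ± 0.67 (adjusted p = 1.4e-05). Among the negative shifts, Rdh16, a retinol dehydrogenase, was 0 to 0.36 CPM in duodenal and 2.12 to 13.7 CPM in the other positive libraries (-6.13 ± 1.15, adjusted p = 0.00036). Npl, an enzyme of sialic acid breakdown, reached 35.6, 47.0 and 46.8 CPM in jejunal positive libraries and at most 0.12 CPM in duodenal ones (-5.14 ± 1.90, adjusted p = 0.02). As single libraries were left out the Npl shift ranged from -7.55 to -3.59, and the call was lost without duodenal positive 2 or duodenal negative 3 (adjusted p = 0.0632 and 0.364). Tat, a tyrosine aminotransferase, had no counts in duodenal positive libraries and measured 9.59, 26.0 and 13.3 CPM in ileal positive ones. Ereg, the growth factor epiregulin, likewise had no counts in duodenal positive libraries and measured 19.2, 8.02 and 16.9 CPM in ileal positive ones. In duodenal negative libraries Tat averaged 0.447 CPM and Ereg measured 0, 0.065 and 0.287 CPM. The duodenal sort differences of Tat and Ereg were thus taken between levels at or near the floor. Ctse, Cmtm8, Gbp9, Kif26b, Pxdn, Trpv3 and Flvcr2 complete the 8 largest shifts in each direction together with Scg5 and Pyy, and the shift of Flvcr2 was -5.49, or -9.35 without duodenal positive library 3. The call was lost for Ptgdr, Cmtm8 and Gbp9 without jejunal negative 2, for Kif26b without duodenal positive 3, for Ereg without duodenal positive 1 or 2 or negative 3, and for Pyy without any of these 3 libraries or duodenal positive 3.

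Some genes changed with the sort in opposite directions, with the test passed in each of the 3 regions. At a mean of at least 5 CPM in some group, 12 such genes were higher in duodenal positive cells and lower in jejunal and ileal ones, and 22 the reverse. With library size alone, 9 of the 12 and 3 of the 22 passed all these tests, Tns4 and Mapk4 among the 3. Cd24a, a surface protein of immature and secretory cells, measured 122, 238 and 244 CPM in duodenal positive and 77.3, 81.2 and 76.1 CPM in duodenal negative libraries. It measured 12.1, 6.58 and 51.2 against 97.1, 85.3 and 79.6 CPM in the jejunum, and 40.8, 30.5 and 39.8 against 64.4, 73.7 and 110 CPM in the ileum. The sorts did not overlap in any region, and the shift was 2.90 ± 0.55 (adjusted p = 0.00086). Arhgef38 was higher in duodenal positive cells (1.38, adjusted p = 0.0029) and lower elsewhere (-1.81), and Celsr1, a cadherin of planar cell polarity, likewise (1.97 and -2.05). In the reverse direction, Tns4, a focal adhesion protein, measured 2.97, 1.13 and 3.33 against 9.20, 10.4 and 5.89 CPM in the duodenum. It measured 30.7, 16.3 and 12.4 against 11.8, 8.53 and 7 CPM in the jejunum, and 72.5, 70.8 and 59.4 against 22.4, 15 and 10.4 CPM in the ileum, a shift of -3.41 ± 0.48 (adjusted p = 5.4e-05). Pla2g12b, a protein of lipoprotein secretion, was lower in duodenal positive cells (-1.39, adjusted p = 0.017) and higher elsewhere (1.84), the duodenal call being lost with library size alone.

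**Figure D5:**
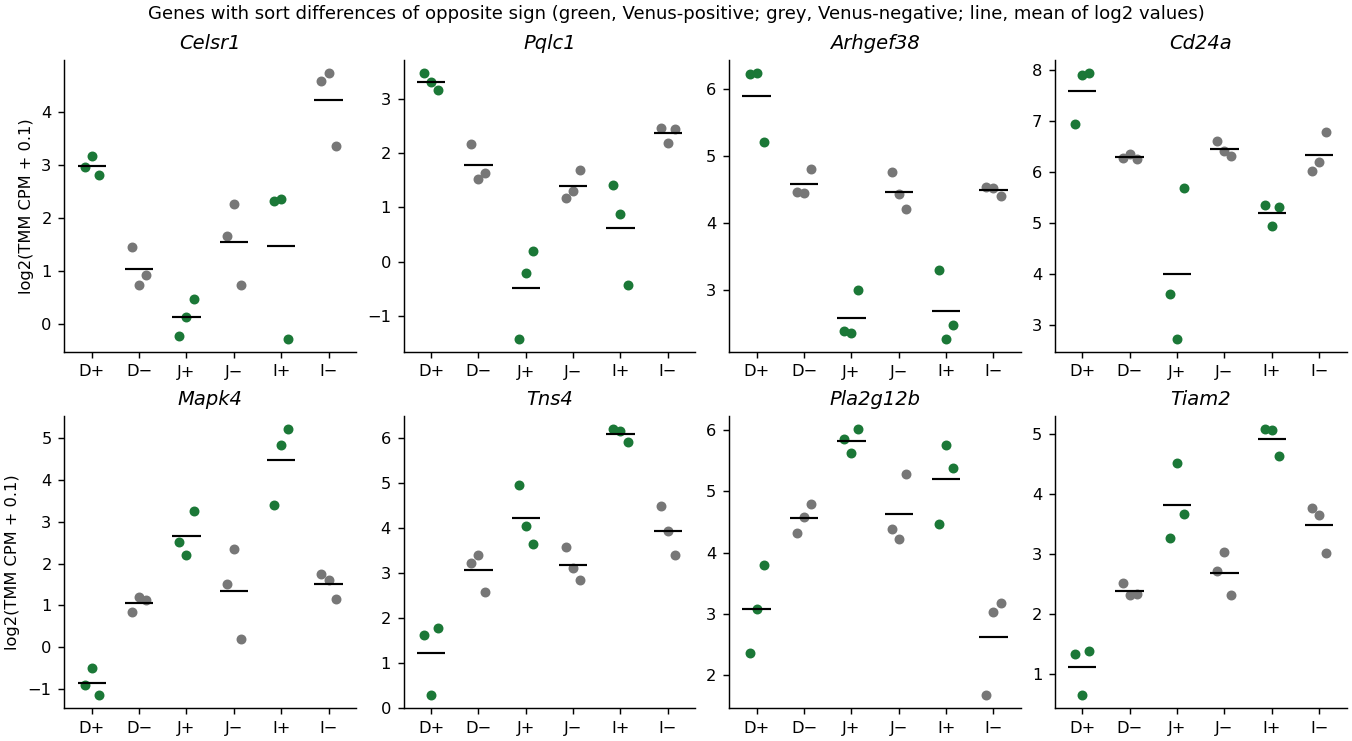
Level (log2 of TMM-scaled CPM + 0.1) of 8 genes whose sort difference passed the test with opposite signs, in positive (+) and negative (−) libraries of duodenum (D), jejunum (J) and ileum (I), 1 point per library and a line at the group mean. In the upper row green points lie above grey in the duodenum and below elsewhere, and in the lower row the reverse holds, with overlap of the jejunal groups for Mapk4.

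Other genes separated the sorts in the same direction in every region. With a sort difference of at least 2 in size, called with the same sign in each region, 136 protein-coding genes were higher and 58 lower in positive cells. The rule set no limit on the shift, so these are not counts of genes with equal sort differences. The genes named next were chosen from them for a shift near 0. Cxcl16, a membrane-bound chemokine, had sort differences of 2.68, 2.71 and 2.68 in duodenum, jejunum and ileum and a shift of -0.01 ± 0.55 (95% interval -1.15 to 1.12). Tubb2a, a tubulin, had 2.70, 2.67 and 2.68, with a shift of 0.03 ± 0.74 (95% interval -1.49 to 1.55). Cplx2, a regulator of vesicle release, was lower in positive cells everywhere, at 0 to 0.87 against 3.36 to 15.9 CPM. These intervals leave room for shifts of more than 1 in either direction. Limch1 was the other gene chosen from those lower in positive cells.

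The tested markers of leucocytes, stroma and endothelium summed to at most 30.7 CPM per list in any library. List sums cover only members with enough counts to be tested. Of the leucocyte lists, 0 of 6 B and plasma cell genes, 0 of 8 T cell genes and 0 of 2 myeloid genes had a called shift (1, 0 and 1 at an unadjusted p under 0.05, and 1, 0 and 0 with DESeq2). The summed level of the T cell list, which includes the gated antigen's gene Ptprc, was 2.20 to 7.62 CPM in duodenal positive and 1.05 to 23.8 CPM in ileal positive libraries, and Ptprc itself was 0 to 0.24 and 0.32 to 4.88 CPM there. The myeloid list summed to 9.97 to 30.7 CPM in duodenal positive, 0.215 to 0.92 CPM in duodenal negative and 1.67 to 8.74 CPM in the other positive libraries, and the 1 of its 2 tested genes that was higher in duodenal positive cells was Lyz2, which is near-identical to the Paneth gene Lyz1. The other, Itgam, reached at most 0.475 CPM there, and 6 of the 8 myeloid genes had too few counts to be tested. Of 5 stromal genes 0 had a called shift (1 at an unadjusted p under 0.05 and 0 with DESeq2), and the list summed to at most 18.9 CPM in any library. Among the endothelial genes 2 of 3 had a called shift, Vwf and Clec14a, at no more than 2.42 CPM in any library. Of the 18 fits that left out 1 library, the Vwf call was lost in 13 (adjusted p up to 0.196) and the Clec14a call in 8 (adjusted p up to 1). Ccl9, from the list of M cells that sample antigen over lymphoid follicles, measured 146, 248 and 103 CPM in duodenal positive libraries and at most 18.2 CPM elsewhere (3.40 ± 0.55, adjusted p = 0.00022), as the 1 called member of 5. The summed level of that list was 115 to 265 CPM in duodenal positive and 11.3 to 16.9 CPM in duodenal negative libraries. Ccl9 made up most of the duodenal positive sum, and the median shift of the list was 0.144. Genes of the duodenal Brunner's glands and stomach were 25.7 to 30.5 CPM in sum in duodenal negative and 3.30 to 12.0 CPM in duodenal positive libraries, and Tff2, Gkn3 and Pgc, the 3 tested, were higher in the duodenum in both sorts. Of these, 0 had a called shift (0 at an unadjusted p under 0.05 and 0 with DESeq2). No gene of the pancreatic acinar, erythroid or neural lists had enough counts to be tested.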

How the data were processed

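Libraries of sorted cells were prepared for stranded total RNA sequencing and read as single ends. The deposited values were read counts per gene, which the authors had not normalised. The submitters' processing notes name CASAVA, STAR 2.5.1 and the GRCm38 build, and the gene annotation and strand setting of the counting are not given in the sources used here, so overlapping genes cannot be told apart. The authors compared groups with DESeq2. The members and lists used here were chosen with earlier results of these data known.

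Gene names and coordinates came from GENCODE M21 for 53360 of 53465 genes. A total of 4 lines that name no gene were left out of library sizes, and they held 39.4 to 75.8% of the tallied reads of the 18 libraries (ambiguous, multimapping, unmapped and in no annotated feature). A count of 3 per library was taken as the floor (0.130 to 0.402 CPM before scaling), and such floors cover counting error only. No column belonged to a sample outside the series. In edgeR 4.0.16 (R 4.3.3, limma 3.58.1), genes were kept by filterByExpr with a minimum count of 10 and a minimum total of 15, scaled by TMM and fitted by quasi-likelihood with 6 group coefficients. Contrasts were tested two-sided with Benjamini-Hochberg adjustment at 0.05 over the 14366 genes kept, with SE and 95% intervals from the information of the fit. An SE was not given where a group had no counts. The alternatives were DESeq2 1.42.0, other scalings and filters, other sets of libraries and genes, the i5 index of the library as a covariate, and single libraries left out. Python 3.11.15 with pandas 2.3.3 and matplotlib 3.10.9 made tables and figures.

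The genes named were 6 fixed ones, the 8 largest shifts each way among protein-coding genes of at least 5 CPM, 4 opposed genes each way, 4 alike genes, and from each list the 2 members with the smallest p in each direction and markers the study names. Other named members were chosen after their values were seen, and a few genes under the rule are not reported here. A few genes stand in more than 1 list (Creb3l3, Apoa4, Slc28a2 and Sox9).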

Additional observations from a re-analysis of the deposited data

Results flagged for a closer look

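The sort difference of 2658 genes differed between the duodenum and the mean of jejunum and ileum by the test of that difference. Between jejunum and ileum, whose sort differences differed for 40 genes, 2 of the genes named stood out. Ghrl had a sort difference lower in the jejunum than in the ileum, a log2 difference of -5 (edgeR, adjusted p = 0.049), with ileal levels of 7.78, 2.81 and 0.08 CPM in positive and 1.80, 0.59 and 0.11 CPM in negative libraries. Il18, an interleukin of epithelial cells, differed by -3.04 (adjusted p = 0.0061). It measured 20.1, 24.5 and 18.3 against 1.76, 4.84 and 4.37 CPM in the ileal sorts, where positive libraries lay above negative ones, and the jejunal sorts overlapped at 11.5 to 25.2 CPM. In the duodenum its positive libraries lay below the negative ones, at 8.90, 12.7 and 8.67 against 17.8, 33 and 25.5 CPM. Groups of 3 libraries were not examined for single libraries far from the rest.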

How the results depend on the processing

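The labels carry neither a mouse nor a replicate number. The replicate numbers used here follow accession order only. No fit paired or blocked on them was made, so libraries that share a mouse were fitted as independent. Library 3 had the highest share of unassigned reads in each of the 6 groups. Of the 2658 shifts, 2632 were called with DESeq2 (3225 in all), 2631 with RLE scaling, 2057 with library size alone (2509 in all), 2647 with the i5 index as a covariate and 2299 without the filter on low counts, and 0 were called in the opposite direction in these fits. At an adjusted p of 0.01 the counts were 1274 shifts, 1202 duodenal sort differences, 6 between jejunum and ileum, 3638 for positive and 207 for negative cells. Differences between jejunum and ileum numbered 141 with DESeq2, 146 without the filter and 75 with the i5 index, and negative-cell differences 534 without the filter. Leaving out single libraries gave 1818 (without duodenum positive 2) to 3129 shifts, 1505 (without duodenum positive 1) to 2805 duodenal sort differences, 1623 of them without duodenum negative 2, and 15 (without ileum positive 3) to 233 (without jejunum positive 3) between jejunum and ileum, with 17 to 24 without jejunum positive 1, jejunum negative 1, ileum negative 1 or ileum positive 2. For negative cells it gave 211 (without duodenum negative 3) to 431, with 223 without duodenum negative 2. The causes were not tested.

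Among 90 named genes and 2517 values, 2392 kept direction and side of the threshold, 82 lost the call and 43 changed sign, and 0 genes with a called shift changed sign. Of the genes the report names, calls were lost against the jejunum alone for Ccl25, Cdx1, Cmtm8, Ereg, Ghrl, Heph and Pyy, against the ileum alone for Clec14a, Ctse, Defa29, Gbp9, Hk2, Ido1, Pou2f3, Reg1 and Vwf, and against either for Abcc4 and Pdx1. The sign changes lay in the genes chosen for a shift near 0. Cxcl16 gave 0.00466 with DESeq2, 0.00309 with RLE, 0.28 with library size alone, 0.00833 with a mean of at least 1 CPM, 0.0255 with all 24 libraries, 0.0794 with the i5 index and 0.0033 against the ileum alone, and -0.39 to 0.68 as single libraries were left out. Tubb2a gave -0.00687 on protein-coding genes outside the mitochondrial genome and -0.24 to 0.32 as libraries were left out. Cplx2 gave 0.20 with library size alone, 0.93 against the jejunum alone and -2.305 to 0.87 as libraries were left out. Limch1 gave -0.0138 with the i5 index, -0.71 against the ileum alone and -2.27 to 1.11 as libraries were left out. The duodenal positive libraries were among the shallowest, which limits what could be detected for genes of a few CPM.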
